A study of Mus musculus with 6 samples.

Results

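RUNX1 binding was examined at the 4 genes of the thrombin receptor family, F2r, F2rl1, F2rl2 and F2rl3, in mouse granulosa cells before and after the ovulatory stimulus. A peak was counted for a gene when its summit lay inside the gene body or within 50 kb of either end of it. By this rule 25 of the 51515 deposited peaks belonged to the family. All 25 came from the libraries collected 6 h after human chorionic gonadotropin (hCG), with 10 in replicate 1 and 15 in replicate 2. The 6 h lists hold 92.1% of all peaks. Neither library collected before hCG (0 h) held any. One of the 25, in 6 h replicate 2, lay within reach of both F2r and F2rl2. F2r had been picked because the top-ranked region found only at 6 h lies at its end, so its own values are a description and were not tested. Its paralogues F2rl1, F2rl2 and F2rl3 serve as the comparison.

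Granulosa cells line the ovarian follicle and nurse its oocyte. RUNX1 belongs to the Runt family of transcription factors, which bind DNA directly. The cells came from CBA x C57BL/6 F1 mice aged 21 days. Per the labels, the mice received 5 IU of equine chorionic gonadotropin (eCG) to make follicles grow, and 46 h later 5 IU of hCG, which replaces the surge of luteinising hormone. RUNX1 was immunoprecipitated in 2 libraries of pre-ovulatory cells (0 h post-hCG) and 2 libraries of peri-ovulatory cells (6h post-hCG), and each time point had 1 pooled input. Only the titles and the time-point label set the 0 h group apart, because the same treatment text, with collection at 6 h, is given for every sample. The labels do not say whether the replicates came from separate animals.

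The receptors of this family are G protein-coupled receptors that carry their own ligand. A protease cuts the outer end of the receptor, and the newly exposed end folds back and activates it. Thrombin, the final protease of blood clotting, cuts the products of F2r (PAR1), F2rl2 (PAR3) and F2rl3 (PAR4), while the product of F2rl1 (PAR2) is cut mainly by trypsin-like proteases. Ovarian follicular fluid contains clotting factors, and granulosa cells are known to respond to thrombin.

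The promoter sequences are shown first, because the strongest site of the family lies in the F2r promoter and the other promoters are its comparison. RefSeq promoters on GRCm38.p6 were matched for 3 of the 4 genes, F2r, F2rl2 and F2rl3. The 250 bases before the first base of each gene are printed 5′ to 3′ on the strand of the gene, with 3 short motifs in capitals. These are the RUNX core TGTGGT, the variant RUNX form TGCGGT and the AP-1 motif TGANTCA, each searched on both strands. The first 2 motifs read ACCACA and ACCGCA on the other strand, and no match overlapped another in these promoters. The F2r stretch is chr13:95618467-95618716 on the minus strand, that of F2rl2 is chr13:95696670-95696919 on the plus strand, and that of F2rl3 is chr8:72761409-72761658 on the plus strand.
F2r: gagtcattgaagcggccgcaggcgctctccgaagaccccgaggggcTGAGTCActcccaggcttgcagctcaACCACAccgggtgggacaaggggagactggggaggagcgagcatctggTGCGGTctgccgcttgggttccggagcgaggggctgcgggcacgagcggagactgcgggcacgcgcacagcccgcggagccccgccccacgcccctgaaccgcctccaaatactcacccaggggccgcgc
F2rl2: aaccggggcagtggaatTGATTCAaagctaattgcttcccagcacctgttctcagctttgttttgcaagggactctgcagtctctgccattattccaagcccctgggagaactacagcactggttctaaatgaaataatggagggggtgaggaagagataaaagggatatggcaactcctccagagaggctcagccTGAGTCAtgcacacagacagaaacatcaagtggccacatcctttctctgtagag
F2rl3: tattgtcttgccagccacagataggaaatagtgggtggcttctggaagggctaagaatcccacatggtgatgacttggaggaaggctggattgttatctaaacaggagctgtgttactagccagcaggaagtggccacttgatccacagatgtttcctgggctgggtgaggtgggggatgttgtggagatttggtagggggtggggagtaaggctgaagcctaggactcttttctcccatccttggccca

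The F2r promoter held all 3 motifs once. The RUNX core was on the strand opposite to the gene, printed as ACCACA, 178 to 173 bases before the gene. The variant form TGCGGT lay 130 to 125 bases before the gene and the AP-1 match TGAGTCA 204 to 198 bases before it. The RUNX core was present in 16.8% of the 32851 promoters of 300 bases in the RefSeq table, TGCGGT in 6.45% and TGANTCA in 7.81%. Both the RUNX core and TGANTCA were present in 1.42%. F2rl2 held no match to either RUNX form in the window but 2 AP-1 matches, TGATTCA at 233 to 227 bases and TGAGTCA at 54 to 48 bases before the gene. F2rl3 held none of the 3. The F2r promoter was also richer in G and C, at 68.7% of 300 bases, than those of F2rl2 at 50.7% and F2rl3 at 51.3%, with a median of 52.7% over all promoters. A match of letters is a description and does not show that a factor was bound there.

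Promoters across the genome give the setting for these matches. Of the 4384 promoters with the summit of a replicated 6 h region inside them, 13.7% held TGTGGT, 16.7% held TGCGGT and 4.04% held TGANTCA. In the 28467 other promoters the shares were 17.2%, 4.87% and 8.39%. The RUNX core of the F2r promoter was thus less frequent, and its TGCGGT more frequent, in promoters with a 6 h summit than in the others. Base composition was neither compared between these promoters nor adjusted for.

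The lists held 948 and 3135 peaks at 0 h and 18761 and 28671 peaks at 6 h, for replicates 1 and 2. The genome-wide background recovered from the fold and p-values at 0 h was 2.77 reads in replicate 1 and 2.65 in replicate 2. At 6 h it was 2.76 and 2.13. This background is not a count of sequenced reads, and the part of sequencing depth in the length of the lists was not tested. Fold is the authors' peak caller's ratio of the ChIP pileup to the expected background at the summit, with 1 read added to each, and each list has its own scale. Positions of peaks are therefore also given as the rank or percentile of the fold within the list. Peaks of the replicates that shared at least 1 bp were merged and are called a replicated region of that time point. With 2 libraries against 2 an exact permutation test cannot go below p = 0.333, and no such test was made on genes chosen from these values.

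All 4 family genes had a replicated region within 50 kb at 6 h and none had one at 0 h. Over all 21900 protein-coding genes, 68.8% had a replicated 6 h region within 50 kb and 8.75% had a replicated 0 h region. A further measure is the presence of any 0 h peak, replicated or not, which 28.6% of the protein-coding genes had within 50 kb. A replicated 6 h region without any 0 h peak was found for 40.4% of them. The 10 distinct replicated 6 h regions of the family overlapped no 0 h peak, and of all 17190 replicated 6 h regions 83.5% did not either.

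**Figure D1:**
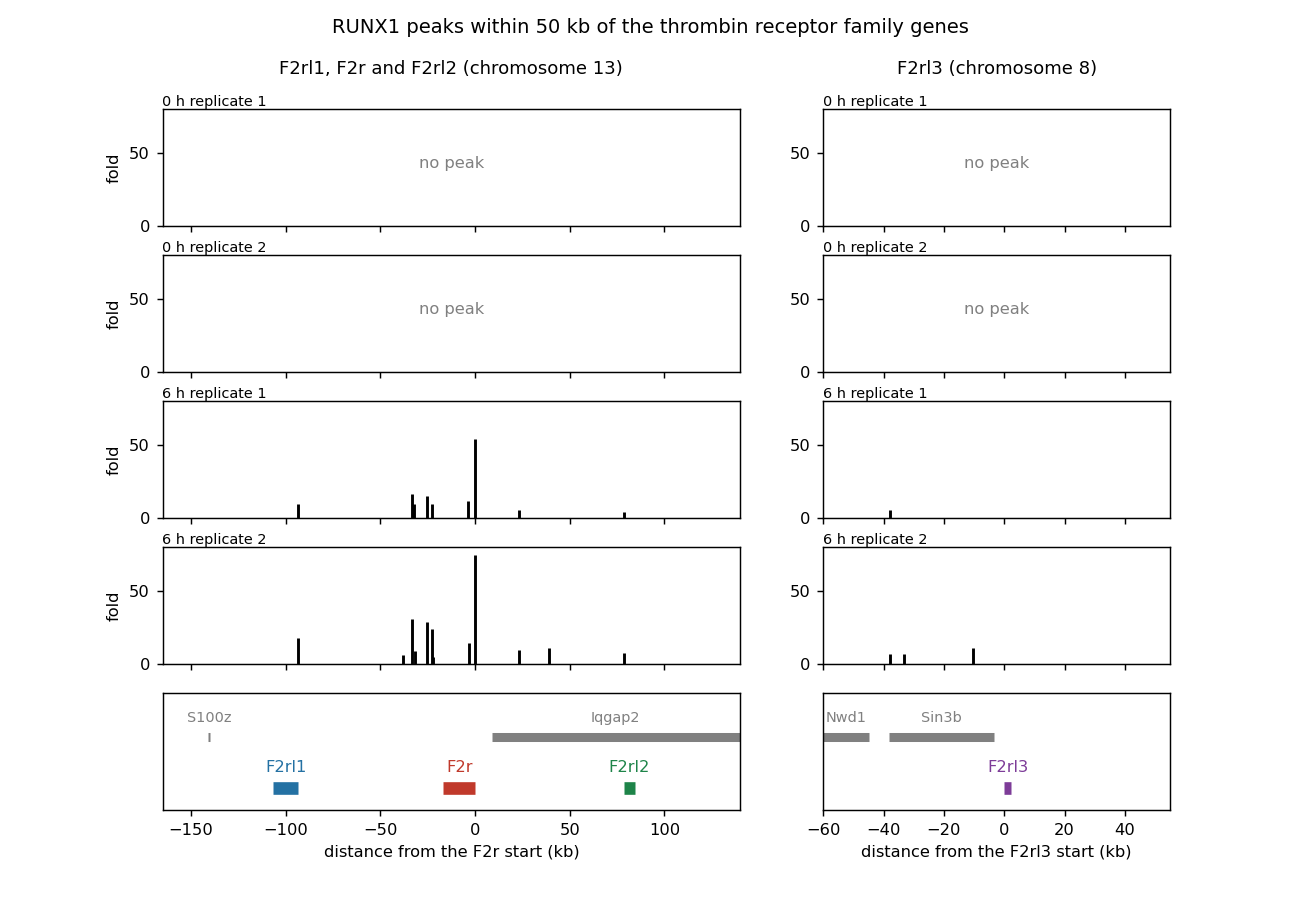
Fold over background of each RUNX1 peak (vertical lines, at the summit) in the 4 libraries, against distance in kb from the start of F2r (left) or F2rl3 (right), negative towards lower coordinates, with family genes in colour and neighbouring protein-coding genes in grey. Both 0 h rows are empty, and the tallest line in each 6 h library, at a fold of 54.3 and 74.5, stands at the F2r start.

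F2r encodes PAR1, the main thrombin receptor of many cell types. It lies on chromosome 13 from 95601780 to 95618466 on the minus strand, so its start is the end with the higher coordinate. The lists held 0 and 0 peaks within 50 kb of it at 0 h, and 7 and 10 peaks at 6 h. These 6 h peaks formed 7 replicated regions, and 3 peaks of replicate 2 had no partner in replicate 1. At least 7 replicated 6 h regions within 50 kb were found for 5.43% of the protein-coding genes, against a median of 2 regions per gene. F2r was 1 of 257 genes, or 1.17%, that had as many and no 0 h peak in the same reach. Both shares are descriptions, since the count includes the region by which the gene was chosen, and the lack of a 0 h peak at that region was part of the choice.

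The region at the F2r start spanned chr13:95617739-95618837, or 1099 bp, against a median of 611 bp for replicated 6 h regions, of which 14.0% were wider. Its summit lay 71 bases before the gene in replicate 1 and 126 bases before it in replicate 2, inside the promoter printed above. The summit of replicate 2 fell on the TGCGGT match and that of replicate 1 lay 56 bp from the centre of that match. From the ACCACA match the summits were 104 and 49 bp away.

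No peak was listed there in either 0 h library, and the fold was 54.3 and 74.5 in the 6 h replicates. In the lists these were ranks 14 of 18761 and 30 of 28671, a mean percentile of 99.9 ± 0.0225 (SD, n = 2). The rule chose the region by this value. It ranked first among the regions without a 0 h peak and at rank 16 among all 17190. Among peaks with a summit within 1 kb of a protein-coding gene end, it was at rank 6 of 8550 and 7 of 10286. Ranks by other measures were lower. By −log10 p it stood at 44 and 85, and by the number of reads at the summit at 149 and 221 of the same lists.

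The reads behind these folds were recovered from the fold and the p-value. The summit pileup was 219 and 240 reads over an expected background of 3.05 and 2.24 reads in 6 h replicates 1 and 2. The median summit pileup of these lists was 46 and 45 reads. In the 0 h libraries a pileup of 18 and 17 reads would have reached the p-value limit of the list at the genome-wide background, and the lowest pileup actually listed was 20 and 19 reads. A missing 0 h peak therefore bounds the signal near that level where the local background was at its floor, and does not show that RUNX1 was absent. The nearest listed 0 h peak was 588.8 kb from F2r in replicate 1 and 589.1 kb in replicate 2, with a fold of 6.94 and 18.4.

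**Figure D2:**
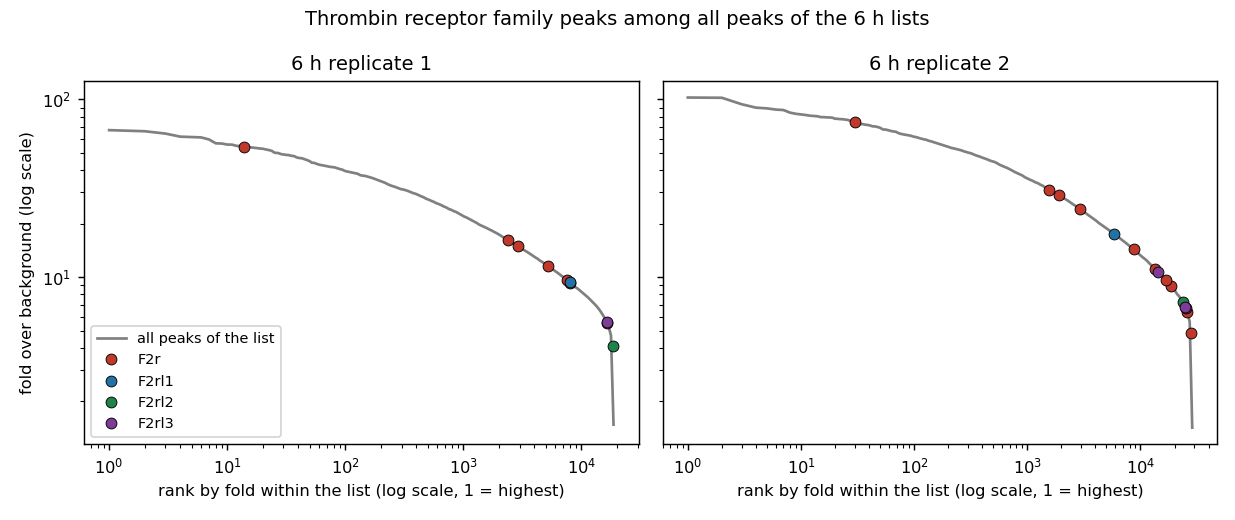
Fold over background (log scale) against rank of the fold within the list (log scale) for all peaks of each 6 h library (grey line), with the peaks of F2r, F2rl1, F2rl2 and F2rl3 as coloured points. A single F2r peak sits at ranks 14 and 30, and the next family peaks follow at ranks 2390 and 1562.

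The other F2r regions were weaker and lay in 3 places. A group of 4 regions lay past the far end of the gene, with summits between 6.2 and 16.7 kb outside it. The outermost, at chr13:95584641-95585462, reached 16.1-fold and 31.1-fold in the 2 replicates, at percentiles 87.3 and 94.6. Its summits in the 2 replicates were 5 bp apart. The next, at chr13:95586372-95586640, reached 9.31-fold and 8.94-fold (percentiles 57.0 and 35.2) and was the only F2r region with a lower fold in replicate 2. The region at chr13:95592782-95593421 reached 14.9-fold and 28.9-fold (percentiles 84.5 and 93.3). The innermost, at chr13:95595400-95595861, reached 9.60-fold and 24.1-fold (percentiles 59.5 and 89.8). Its summits were 1 bp apart although its percentiles differed most within this group.

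A single region had its summit inside the gene, at chr13:95614853-95615344, about 3.4 kb after the start. Its fold was 11.6 and 14.3, at percentiles 72.4 and 69.4. The table used here holds whole genes, so exon and intron were not separated. On the other side, 23.1 kb before the start and inside the neighbour Iqgap2, a weak region at chr13:95641388-95641634 reached 5.50-fold and 9.65-fold (percentiles 11.4 and 41.7). The 3 regions with the highest fold were in the same order in both replicates, and the other 4 changed places. Fold was higher in replicate 2 for 6 of the 7 regions, as it was for 92.3% of all replicated 6 h regions, with a median ratio of 1.52.

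The 3 peaks seen only in replicate 2 lay 21.5 kb and 5.68 kb past the far end and 38.8 kb before the start, with folds of 6.38, 4.86 and 11.2. The last of these, at chr13:95657136-95657398, is the peak within reach of both F2r and F2rl2. It was the outermost peak inside the 50 kb limit of F2r, and the next peaks beyond the limit were those of F2rl1 at 77.0 kb, with a fold of 9.36 and 17.4.

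F2rl1 encodes PAR2, a receptor for trypsin-like proteases. The gene lies on chromosome 13 from 95511718 to 95525240, 76.5 kb from F2r. It had 0 and 0 peaks at 0 h and 1 and 1 at 6 h. These formed 1 replicated region, at chr13:95524359-95525238, with summits in the gene body at 451 and 466 bp from the end that faces F2r. The fold was 9.36 and 17.4, at percentiles 57.4 and 79.5, or a mean of 68.4 ± 15.6 (SD, n = 2). The recovered pileup was 49 and 77 reads over a background of 4.34 and 3.48 reads. Its fold thus lay in the middle to upper part of each list, and its summits agreed within 15 bp. The next peak beyond the limit was 55.1 kb away in replicate 2, with a fold of 6.38, and it belongs to F2r.

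F2rl2 encodes PAR3, which in mouse platelets helps thrombin to cut PAR4. The gene lies on chromosome 13 from 95696920 to 95702768 on the plus strand, 78.5 kb from F2r and wholly inside the span of Iqgap2. It had 0 and 0 peaks at 0 h and 1 and 2 at 6 h, of which 1 pair was replicated. This region, at chr13:95696810-95697253, had its summits inside the gene, 169 and 138 bases after the start. The replicate 2 peak covered the start of the gene and the AP-1 match closer to it, and the replicate 1 peak, from 95696949 to 95697191, began after both. The fold was 4.09 and 7.21, at percentiles 1.85 and 17.5, so the site lay near the bottom of both lists. The call was lost when a −log10 q of at least 20 was required. The pileup was 36 and 42 reads, but the expected background of 8.04 and 4.97 reads was the highest of the replicated family regions in each library. Peaks just beyond the limit were 55.4 kb away in both replicates, with a fold of 5.50 and 9.65, and were those of F2r inside Iqgap2.

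F2rl3 encodes PAR4, the receptor that signals for thrombin in mouse platelets, and lies apart from the others on chromosome 8, from 72761659 to 72763898 on the plus strand. It had 0 and 0 peaks at 0 h and 1 and 3 at 6 h within 50 kb, and none within 10 kb. All of these summits lay inside Sin3b, which encodes a transcriptional corepressor scaffold, between 10.2 and 38.0 kb before the F2rl3 start. One pair formed a replicated region, at chr8:72723349-72723995, at the end of Sin3b farther from F2rl3. Its fold was 5.60 and 6.70, at percentiles 12.7 and 12.5. Its summits were 212 bp apart, so the call was lost when summits had to lie within 100 bp, and it was also lost when peaks went only to the nearest protein-coding gene. The peaks of replicate 2 without a partner had a fold of 6.84 and 10.7. The nearest 0 h peaks were 484.2 and 213.4 kb from the gene, and the first 6 h peaks beyond the limit were 190.8 kb away in both replicates.

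Within the family, a replicated 6 h region within 1 kb of a gene end was present for F2r, F2rl1 and F2rl2 and not for F2rl3, against 37.2% of the protein-coding genes. At 0 h none of the 4 had one, against 1.49% of the protein-coding genes. By fold percentile the best region of each gene came in the order F2r, F2rl1, F2rl3 and F2rl2. F2r and F2rl1 were separated in both libraries. F2rl3 and F2rl2 differed in rank in replicate 1, at 12.7 against 1.85, but changed places in replicate 2, at 12.5 against 17.5. F2r was chosen for the top of this order, and the differences among the other genes were not tested.

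**Figure D3:**
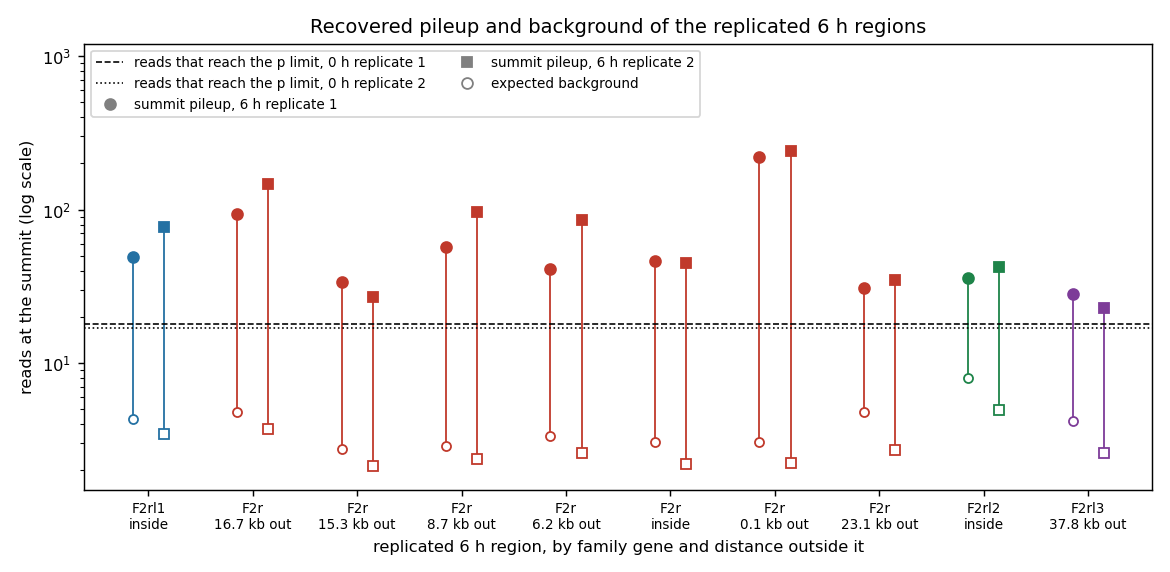
Reads at the summit (filled) and expected background (open), both on a log scale, for the 10 replicated 6 h regions of the family in replicate 1 (circles) and replicate 2 (squares), with horizontal lines at the 18 and 17 reads that reach the p-value limit in the 0 h libraries. The F2r start region reaches 219 and 240 reads, and the F2rl3 region, at 28 and 23 reads, lies closest to the lines.

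The neighbouring protein-coding genes show what else the sites could be counted for. Iqgap2, which encodes a scaffold protein of the cytoskeleton, has its nearer end 8.7 kb beyond F2r and had 4 replicated 6 h regions inside it. Of these, 2 lay within 1 kb of its end farther from F2r, with the higher fold at 8.69 and 13.9. By the 50 kb rule Iqgap2 had 10 replicated 6 h regions, which include every replicated region counted for F2r. S100z, Nwd1 and Sin3b had 0, 0 and 1 replicated region inside them, and no neighbour had a 0 h peak within 50 kb. When each region was given only to its nearest protein-coding gene, F2r kept 6 regions, F2rl1 and F2rl2 kept 1 each and F2rl3 kept 0.

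The regions most like the F2r start region were sought among 6271 other 6 h regions without a 0 h peak and within 1 kb of a protein-coding gene end. Likeness was the distance in the log2 fold of the 2 libraries at 6 h. The closest was at Glcci1, a glucocorticoid-induced gene, at chr6:8509073-8509851, with a fold of 40.6 and 56.2 and a log2 distance of 0.58. It was followed by Ate1, an arginine transferase, at 0.68 and by Sav1, a scaffold of the Hippo pathway, at 0.69. Rasal1, a Ras GTPase-activating protein, and Rnf157, a ubiquitin ligase, both had a distance of 0.83. The fold of these 5 ran from 32.5 to 40.6 in replicate 1 and from 46.8 to 57.7 in replicate 2. The F2r region was chosen as the first of the regions without a 0 h peak, so its higher fold follows from the choice. The comparison rests on 2 libraries, and it was not resolved at which of its 2 ends each of these 5 genes was approached.

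The other genes of the thrombin pathway were taken from a list of 45. Of these, 34 had a replicated 6 h region within 50 kb, or 75.6%, beside 68.8% of all protein-coding genes. Within 10 kb 23 had one, or 51.1%, beside 53.1%, and within 1 kb of a gene end 22, or 48.9%, beside 37.2%. At 0 h, 5 had a replicated region, or 11.1%, beside 8.75%. The median number of 6 h regions per gene was 2 in the list and 2 over all protein-coding genes, while F2r had 7 and its paralogues 1 each. These counts depend on the distance and on the peaks used. Within 10 kb F2r had 4 regions, F2rl1 and F2rl2 1 each and F2rl3 0, and within 100 kb, where the reaches overlap, they had 9, 7, 4 and 1 in the order F2r, F2rl1, F2rl2 and F2rl3. With 948 peaks per library F2r had 1 and the others 0. The best region of a listed gene had a median percentile of 76.8, beside 77.5 for all protein-coding genes with a region.

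**Figure D4:**
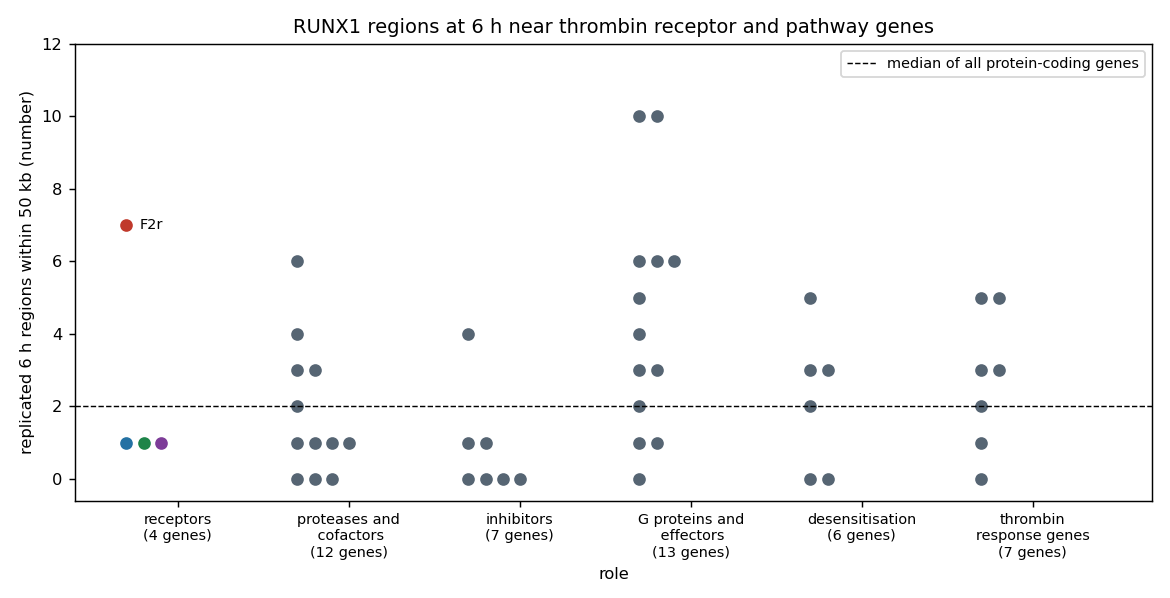
Number of replicated 6 h regions within 50 kb of each gene (points), for the 4 receptors and the 45 pathway genes by role, with the median of 2 regions over all protein-coding genes as a dashed line. F2r has 7 regions and its paralogues 1 each, and the points with 10 regions are Gna11 and Plcb3.

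The counts were then split by role. Among the 12 proteases and cofactors that form, bind or stand in for thrombin, 9 had a 6 h region within 50 kb, or 75%, beside 68.8% of all protein-coding genes, and 2 had one within 10 kb, or 16.7%, beside 53.1%. The region with the highest mean percentile was near Plau, which encodes the urokinase plasminogen activator, at a fold of 37.3 and 59.1 and 42.1 kb from the gene. Next was one 22.8 kb from Proc, the gene of the anticoagulant protein C, with 21.9 and 39.9. The Plau region overlapped a 0 h peak in both replicates, and the Proc region one in replicate 2, with a fold of 5.75. F2, which encodes prothrombin, had a region 13.7 kb away, with a fold of 12.8 and 26.6. In each of these 3 cases another protein-coding gene was closer, Camk2g, Map3k2 and Arhgap1. Thbd, the gene of the thrombin cofactor thrombomodulin, and Tmprss2, a membrane serine protease, had no peak in any library.

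Of the 7 inhibitors of thrombin or its formation, 3 had a replicated 6 h region within 50 kb, or 42.9%, beside 68.8% of all protein-coding genes. Serpine2, which encodes a tissue inhibitor of thrombin, had its best region inside the gene, with a fold of 13.5 and 22.1. Serpinc1, which encodes antithrombin, had one 32.1 kb away, with 13.1 and 13.2, closer to Zbtb37. Tfpi and Tfpi2, inhibitors of the tissue factor pathway, had no peak in any library.

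The G proteins and effectors carry the receptor signal into the cell. Of these 13 genes, 12 had a replicated 6 h region within 50 kb, or 92.3%, beside 68.8% of all protein-coding genes, and 11 had one within 1 kb of a gene end, or 84.6%, beside 37.2%. The gene-end count was 1 of 12 proteases and cofactors (8.33%), 1 of 7 inhibitors (14.3%), 4 of 6 desensitisation genes (66.7%) and 5 of 7 thrombin response genes (71.4%). Differences between the roles were not tested. The best was inside Gna12, a G protein subunit that acts on RhoA, with a fold of 23.9 and 49.7, at percentiles 95.8 and 98.9. It overlapped a 0 h peak in replicate 1, with a fold of 6.95. A region 44.0 kb from Plcb3, a phospholipase C, had 18.1 and 31.6, and Trmt112 was the nearer gene. It overlapped a 0 h peak in replicate 2, with a fold of 6.17. Plcb1, another phospholipase C, had no replicated region. Of the 6 desensitisation genes, 4 had a region, or 66.7%, beside 68.8% of all protein-coding genes. They were led by Arrb2, an arrestin, with 13.9 and 19.6 at 22.4 kb, and by Grk2, a receptor kinase, with 9.14 and 14.7. These regions were nearer to Pelp1 and Ssh3, and the first overlapped a 0 h peak in replicate 2, with a fold of 5.12. Grk3, another receptor kinase, had no peak in any library.

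Genes known to respond to thrombin had a region within 50 kb in 6 of 7 cases, or 85.7%, beside 68.8% of all protein-coding genes. Vegfa, an angiogenic factor, had one 41.7 kb away, with a fold of 35.1 and 47.6, and Egr1, an immediate early transcription factor, had one 20.6 kb away, with 15.8 and 29.3. Mrps18a and Reep2 were nearer to these sites. Ccl2, a chemokine, had no peak in any library. The pathway genes with a replicated 0 h region were F7, Plau, Gna11, Gnai2 and Vegfa. Each of these 0 h regions lay 22.9 to 49.0 kb from the gene and was closer to another protein-coding gene. The 0 h fold was 9.76 and 14.3 at the site near Plau and 11.5 and 21.8 at the site near Vegfa. Any 0 h peak within 50 kb, replicated or not, was listed for 14 of the 45 pathway genes, beside 28.6% of all protein-coding genes.

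The labelled cell type could not be checked by RNA, since peaks give no RNA level. Of the 8 granulosa marker genes, 7 had a replicated 6 h region within 50 kb, and Fshr did not. So did 3 of 3 theca, 2 of 3 oocyte, 3 of 4 endothelial, 4 of 4 leukocyte and 3 of 4 platelet and megakaryocyte markers, beside 68.8% of all protein-coding genes. At 0 h, 3 granulosa, 1 theca and 1 oocyte marker had a replicated region, and the markers of endothelium, leukocytes and platelets had 0, beside 8.75% of all protein-coding genes. Counting unreplicated peaks too, a 0 h peak lay within 50 kb of 4 of 8 granulosa, 1 of 3 theca, 1 of 3 oocyte, 1 of 4 endothelial, 2 of 4 leukocyte and 1 of 4 platelet markers, beside 28.6% of all protein-coding genes. Platelets and endothelium are known sites of the thrombin receptors, and the part of such cells in the F2r values was not tested.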

How the data were processed

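RUNX1 ChIP-seq libraries were sequenced as single reads of 75 nt, per the labels. Bowtie2 2.2.5, MACS2 and the build mm10 are named in the submitters' processing notes, and the MACS2 version and settings are not given in the sources used here. The deposited files list peaks per library, with a fold ratio over background, a −log10 p and a −log10 q for each peak. The deposited score was not used further. The 2 inputs entered only through the authors' peak calls, per the series design text.

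Genes and promoters came from RefSeq on GRCm38.p6, the build of mm10, and positions are counted from 1. Pileup and background were solved from fold = (pileup + 1) / (background + 1) and the Poisson tail, with a misfit of at most 0.005 in −log10 p, for 100% of the peaks in each list. The solver and the gene assignment were tested on simulated data. Percentiles are ranks of fold within a list. A region was placed by the summit of its peak with the highest fold.

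The 4 genes, the pathway list and the marker lists were chosen with earlier results of these data known. Named pathway genes are the 2 per role with the highest mean fold percentile at 6 h, those with a replicated 0 h region and those without a peak; F2, Plcb1, Fshr and the distances to nearest genes were added after the values were seen. The neighbours are protein-coding genes that overlap the 50 kb reach. Alternatives changed the distance, the peaks used, the overlap, the gene assignment, the ranking and the libraries. Python 3.11.15, pandas 2.3.3 and SciPy 1.17.1 were used.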

Additional observations from a re-analysis of the deposited data

How the results depend on the processing

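The count of 4 family genes with a replicated 6 h region became 2 with a −log10 q of at least 20, which left F2r and F2rl1, and 1 with 948 peaks per library, which left F2r. The 34 pathway genes with a region became 3 with 948 peaks per library. Shorter lists hold fewer peaks by construction. The remaining 27 of 30 alternatives for the counts of genes stayed within 1.5 times, but most of those for the 0 h count of 0 could not raise it by construction. Leaving out 1 library in turn gave 4 family genes at 6 h and 0 at 0 h each time, and 34 to 39 pathway genes. Without a 6 h library a region needs a peak of the other library only, and without a 0 h library the 6 h regions are unchanged. These settings therefore do not test the 6 h counts. The mean percentile of the F2r start region was 99.74 by −log10 p, 99.21 by pileup and 99.94 among gene-end peaks. Without a 6 h library it was 99.90 to 99.93, which are the percentiles of the single libraries that make up the mean. No paired analysis was possible because the results are counts and ranks of peaks, with no test to which a block could be added, and the replicate numbers are not stated to mark shared animals or days. Depth is limited by 0 h lists that start at 20 and 19 reads, so weaker 0 h binding is not detectable here.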
